A study of Homo sapiens with 27 samples.

Results

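ELF3 and 9 relatives from the ETS family of transcription factors, namely EHF, SPDEF, ETV4, ETV5, ETS1, ETS2, ERG, ELF1 and ELK3, were followed in prostate cancer cells in which RIPK2 was targeted. These 10 genes, out of 27546 gene symbols listed in any of the 3 count tables, were picked by symbol. ELF3 was picked because it was higher with every RIPK2 guide in every line, so its differences between guide and control are given below as a description, without a test. RIPK2 encodes a kinase through which NOD1 and NOD2, sensors of bacterial cell wall, activate NF-kB. RNA was sequenced in bulk from 22Rv1, derived from a xenograft, from DU145, derived from a brain metastasis, and from PC3, derived from a bone metastasis. Each line gave 3 libraries from cells with a control gRNA, labelled WT. Another 3 libraries per line carried RIPK2 gRNA 10, and 3 carried a different guide, gRNA 1 in 22Rv1 and gRNA 2 in the other lines. All of these are labelled RIPK2 knockout. The labels give no other agent, time or dose, and do not say whether a population was a clone or a pool. Nor do they say whether replicates were separate cultures, so p-values measure the spread between these libraries, which may be technical.

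ETS proteins share a winged helix-turn-helix domain that binds DNA around a GGAA core, and they differ mainly in where they are expressed, in the partners they bind and in the signals that switch them on. ELF3, EHF, ELF5 and SPDEF form the epithelial branches of the family and are known for roles in the differentiation of glandular epithelium, the prostate included. ETV1, ETV4 and ETV5 form the PEA3 group, which is induced by ERK signalling. ERG and ETV1 are best known in this tissue from fusions with androgen-responsive promoters, which drive them in many prostate tumours.

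RIPK2 itself was lower on average with each guide. In 22Rv1 its level was 16.7 ± 1.29 CPM (counts relative to the library's TMM-scaled total, within the line; SD, n = 3) in the control, 8.69 ± 0.633 with gRNA 1 and 5.38 ± 0.189 with gRNA 10. In PC3 it was 60.4 ± 1.74 in the control, 20.6 ± 0.946 with gRNA 2 and 27.2 ± 1.51 with gRNA 10. In DU145 it was 42.4 ± 2.67 in the control, 11.8 ± 1.77 with gRNA 2 and 34.8 ± 1.51 with gRNA 10, and that last difference did not pass the test (log2 fold change -0.29, edgeR quasi-likelihood adjusted p = 0.0614), although the groups did not overlap. The libraries held 17958558 to 20650819 counts each. In replicate 3 of 22Rv1 gRNA 1, mitochondrial transcripts took 16.7% of counts, against 0.515% to 2.1% in the other 22Rv1 libraries. That library and replicate 3 of DU145 gRNA 2 stood apart from their groups. For some of the results that rest on them, values without them are also given. Of 6 prostate epithelial markers (EPCAM, KRT8, KRT18, CDH1, HOXB13 and FOLH1), 6 were above 3 counts in the 22Rv1 and PC3 controls and 4 in the DU145 control. In bulk RNA, fewer cells of a type and less RNA per cell cannot be told apart.

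The gene of ELF3 lies on chromosome 1 (chr1:202007945-202017188, plus strand, hg38, GENCODE release 29). That of EHF lies on chromosome 11 (chr11:34621093-34661057, plus strand), 107 kb from ELF5, and that of SPDEF on chromosome 6 (chr6:34537802-34556333, minus strand). The 250 bases before their RefSeq transcription starts (GRCh38.p14) are shown because these 3 epithelial factors went different ways after the same guides. Capitals mark the GGAA core on either strand (TTCC when it lies on the other strand) and, in ELF3, also a match to the NF-kB consensus, which overlaps a GGAA core.
ELF3: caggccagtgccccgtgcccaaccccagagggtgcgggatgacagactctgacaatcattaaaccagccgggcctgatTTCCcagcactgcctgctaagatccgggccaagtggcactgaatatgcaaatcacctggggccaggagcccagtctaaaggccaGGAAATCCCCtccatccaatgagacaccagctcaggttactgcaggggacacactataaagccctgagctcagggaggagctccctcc
EHF, upstream start: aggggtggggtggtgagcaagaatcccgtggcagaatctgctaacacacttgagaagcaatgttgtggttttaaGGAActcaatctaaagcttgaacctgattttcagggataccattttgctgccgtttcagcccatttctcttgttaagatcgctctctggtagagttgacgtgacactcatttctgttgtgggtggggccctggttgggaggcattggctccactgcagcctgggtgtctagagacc
EHF, downstream start: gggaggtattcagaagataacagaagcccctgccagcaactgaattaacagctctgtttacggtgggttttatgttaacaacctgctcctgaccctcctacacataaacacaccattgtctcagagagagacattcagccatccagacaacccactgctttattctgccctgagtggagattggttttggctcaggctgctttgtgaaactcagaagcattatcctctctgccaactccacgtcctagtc
SPDEF: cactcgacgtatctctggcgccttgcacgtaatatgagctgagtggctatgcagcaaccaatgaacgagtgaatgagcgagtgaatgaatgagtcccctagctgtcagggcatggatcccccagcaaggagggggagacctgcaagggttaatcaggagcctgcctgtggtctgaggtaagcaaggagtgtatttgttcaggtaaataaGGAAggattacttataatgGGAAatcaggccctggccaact
These stretches are chr1:202010337-202010586 (plus strand), chr11:34624007-34624256 and chr11:34632316-34632565 (plus strand) and chr6:34556330-34556579 (minus strand). The NF-kB match of ELF3 runs from 88 to 79 bases before the start. Of the 15 windows listed for 7 of the 10 genes, this was the 1 window with such a match, which 5.21% of all 35116 RefSeq windows of this length hold. The GGAA core is in 92.7% of those windows, the printed downstream start of EHF being among those without it. None of the 15 windows held CCGGAAGT, TGANTCA or TGACGTCA on either strand, against 3.42%, 6.57% and 1.65% of all windows. These are letter matches and not measured binding sites.

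**Figure D1:**
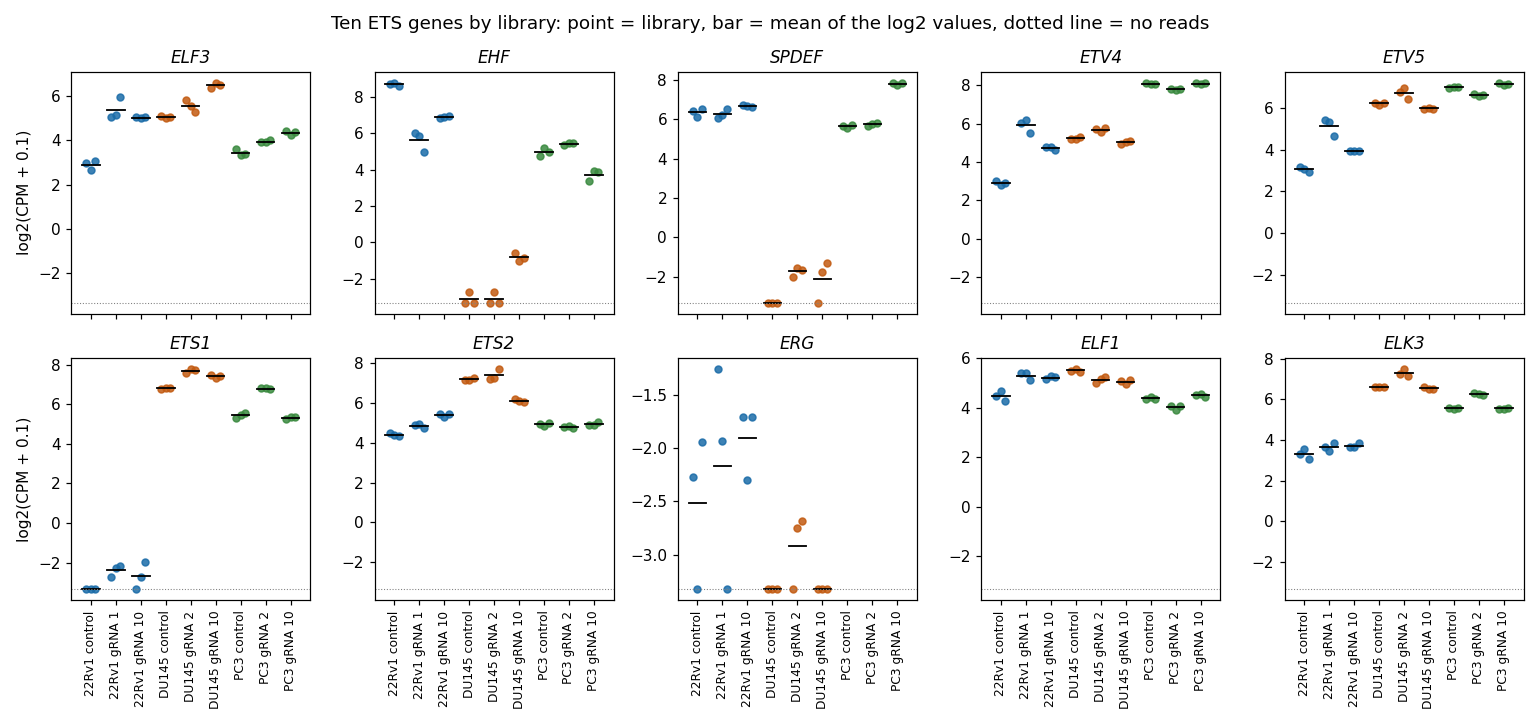
Level of the 10 ETS genes in each library, as log2(CPM + 0.1), by line and guide (ERG in 22Rv1 and DU145). Each point is a library, each bar the mean of the 3 log2 values and the dotted line the value without reads; ELF3 is above control with each guide, while the relatives move in different directions.

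ELF3, an epithelial factor that NF-kB and interleukin signals are known to induce, had its lowest level in the 22Rv1 control. The 3 libraries read 7.73, 6.29 and 8.31 CPM there, 33.3, 35.2 and 61.9 CPM with gRNA 1, and 33.1, 31.8 and 32.9 CPM with gRNA 10. In 22Rv1 every knockout library was above every control library, and the highest was the library with the high mitochondrial share. The log2 fold change was 2.54 (SE 0.23) with gRNA 1 and 2.13 (SE 0.23) with gRNA 10. Without the libraries that stood apart, the first of these was 2.19. In DU145 ELF3 read 34.6, 31.9 and 33.7 CPM in the control, 56.2, 47.0 and 38.7 CPM with gRNA 2, and 83.2, 97.0 and 90.9 CPM with gRNA 10. The groups did not overlap, and the log2 fold changes were 0.50 (SE 0.13) and 1.43 (SE 0.13). Without the libraries that stood apart, the value with gRNA 2 was 0.63. In PC3 it read 12, 10.0 and 10.3 CPM in the control, 15.1, 15 and 15.9 CPM with gRNA 2, and 21.3, 19.1 and 20.7 CPM with gRNA 10. Those groups again did not overlap, with log2 fold changes of 0.51 (SE 0.08) and 0.92 (SE 0.08). ELK4 and ETV3 also lie on chromosome 1. In PC3 their mean levels were 78.1 and 27.7 CPM in the control. They were 87.2 and 37.6 CPM with gRNA 2, and 98.4 and 35.5 CPM with gRNA 10. ETV3L, on the same chromosome, had at most 1 count in any PC3 library. Whether a change shared along chromosome 1 had a part in the PC3 values of ELF3 was not tested. Of 12800 genes tested in all 3 lines, 16 (0.125%) were called higher in all 6 guide contrasts. The contrasts of a line share their control libraries. Beside ELF3, the 6 prostate epithelial markers summed to 796 to 841 CPM in the DU145 control, 1486 to 2816 with gRNA 2 and 1430 to 1543 with gRNA 10, with HOXB13 and FOLH1 at 2 counts or fewer in each library. In 22Rv1 they summed to 1311 to 1394 CPM in the control, 1174 to 1205 with gRNA 1 and 1386 to 1412 with gRNA 10. In PC3 the sums were 2207 to 2286, 1912 to 1981 and 2653 to 2820 CPM. Such a sum follows its most abundant markers. Of a wider list of epithelial regulators and markers in DU145, 7 of 17 were called higher and 6 lower with gRNA 2 (median log2 fold change 0.22). With gRNA 10, 3 were higher and 8 lower (median -0.58). Of all genes, 34% and 40% were called in these contrasts. The 5 fibroblast markers (COL1A1, COL3A1, DCN, LUM and PDGFRB) summed to 9.52 to 11.7 CPM in the 22Rv1 control, 14.8 to 32.5 with gRNA 1 and 26.8 to 28.5 with gRNA 10. In DU145 they summed to 14.3 to 15.4, 5.81 to 12.5 and 25 to 31.3 CPM, and in PC3 to 64.3 to 66.3, 55.4 to 66.2 and 70.1 to 73.9 CPM. DCN had at most 2 counts in any 22Rv1 or DU145 library, and most of the sum there was COL1A1. The part of these levels in the ELF3 values was not tested.

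Between the guides of a line, which the choice of ELF3 did not use, the level of ELF3 was lower with gRNA 2 than with gRNA 10 in DU145 (log2 difference -0.93, SE 0.13, edgeR adjusted p = 0.00032) and in PC3 (-0.41, SE 0.07, adjusted p = 1.1e-05). Each difference held over 3 against 3 libraries without overlap. In 22Rv1 gRNA 1 and gRNA 10 differed by 0.41 (SE 0.21, adjusted p = 0.14), which did not pass the test. That difference was 0.06 (adjusted p = 0.669) without the libraries that stood apart, and passed when replicate 1 of gRNA 1 was left out (0.57, adjusted p = 0.0463). In 1 model of all 27 libraries, ELF3 was higher in the DU145 than in the PC3 control (log2 difference 1.48, SE 0.17). It was lower in the 22Rv1 than in the PC3 control (-0.68, SE 0.19). These are given without a test, because ELF3 was chosen for its rise over these control libraries. Ordered by mean CPM over the 9 groups, with the CPM of each line scaled separately, the 22Rv1 control was lowest, followed by the PC3 control, PC3 gRNA 2, PC3 gRNA 10, 22Rv1 gRNA 10, the DU145 control, 22Rv1 gRNA 1, DU145 gRNA 2 and DU145 gRNA 10. In that order the libraries of 22Rv1 gRNA 10 overlapped those of the DU145 control, and those of 22Rv1 gRNA 1 overlapped both its neighbours. The knockout level of ELF3 in 22Rv1 thus lay where the DU145 control already was, on these separate scales.

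On the per-length scale used here, ELF3 was not among the first members of the family in any control. Per kilobase of exon, from GENCODE release 29 gene models, its level in the control was 1.04 CPM per kb in 22Rv1, 4.65 in DU145 and 1.5 in PC3. These levels put it at place 17, 12 and 16 of 26 listed ETS genes. The first place was held by EHF in 22Rv1 (94.8 CPM per kb, 36.2% of the sum over the family), by the repressor ERF in DU145 (36.7 CPM per kb, 18.4%) and by ETV4 in PC3 (75.3 CPM per kb, 31.6%). Exon lengths summed over all transcripts of a gene can exceed what a line transcribes, so the places are approximate. For ELF3 that length was 7191 bases and takes in exon sequence upstream of the RefSeq start printed above. Its places may therefore be too low.

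**Figure D2:**
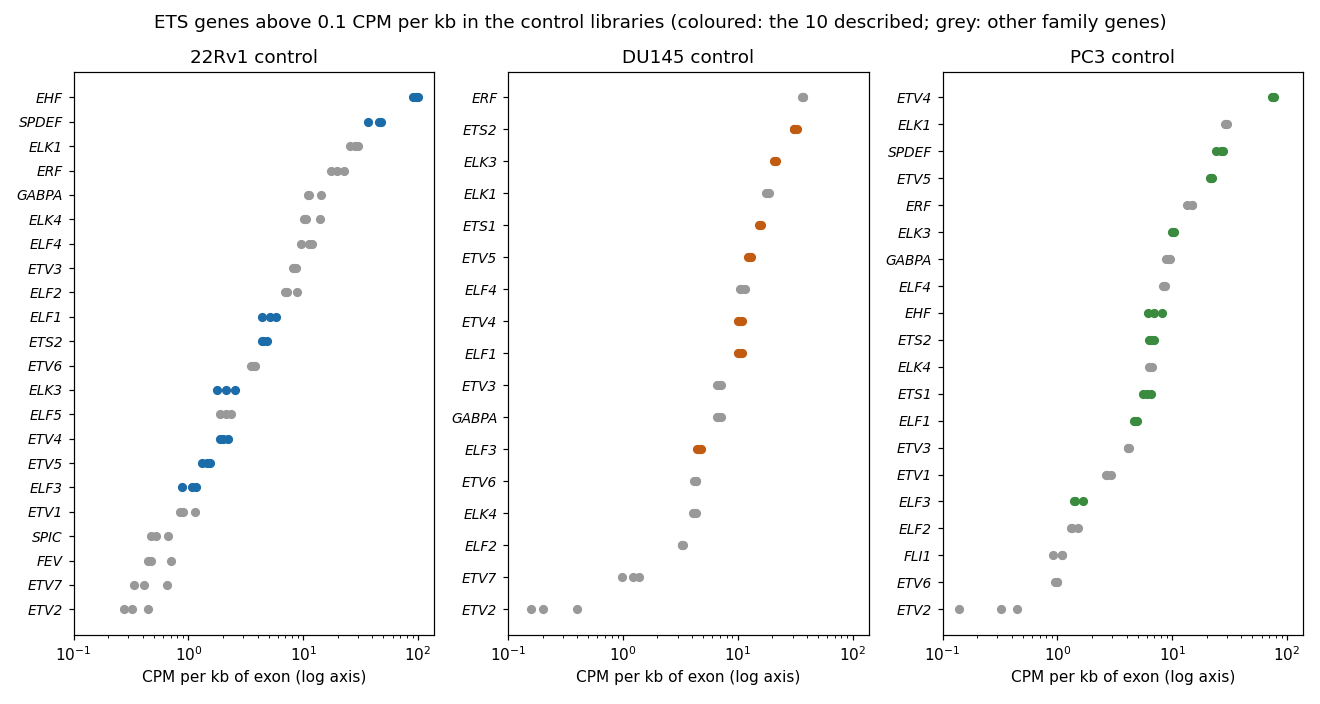
Level of each ETS gene above 0.1 CPM per kb of exon (log axis) in the 3 control libraries of each line; coloured points are the 10 genes described and grey points other family genes. EHF leads in 22Rv1, ERF in DU145 and ETV4 in PC3, while ELF3 is at place 17, 12 and 16 of the family on this scale.

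The control levels differed between lines for nearly every member that could be compared. Between 22Rv1 and DU145, 6 of 6 members above the floor in both were lower in 22Rv1, against 75.9% of all 16322 genes called in either direction and 37.9% called lower. The shares of all genes here include genes at the floor in a line. With such members counted too, 9 of 9 tested were called, 2 higher and 7 lower in 22Rv1. Between 22Rv1 and PC3, 7 of 8 differed (80.5% of all genes), with EHF and SPDEF higher in 22Rv1 and ETV4, ETV5, ETS2, ELK3 and ELF3 lower. ELF1, a broadly expressed factor, was the exception (log2 difference -0.06, SE 0.10, adjusted p = 0.582). Between DU145 and PC3, 7 of 7 differed (75.9% of all genes), with ETV4 and ETV5 lower in DU145. With members at the floor counted too, it was 8 of 9 between 22Rv1 and PC3 and 9 of 9 between DU145 and PC3. The background was high in each of these comparisons. Each count includes ELF3, although its choice used these control libraries. The widest differences were those of genes that were silent in a line. EHF was at least 2865-fold higher in the 22Rv1 than in the DU145 control and at least 238-fold higher in PC3 than in DU145. SPDEF was at least 570-fold and 383-fold higher in 22Rv1 and PC3 than in DU145. ETS1 was at least 698-fold and 298-fold higher in DU145 and PC3 than in 22Rv1, these bounds being set by a floor of 3 counts per library in the silent line.

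With RIPK2 gRNA 1 in 22Rv1, 5 of the 7 relatives that passed the filter on low counts were called, 4 higher and 1 lower, against 48.5% of all 15198 genes (25.6% higher and 22.9% lower). With gRNA 10 it was again 5 of 7, 4 higher and 1 lower, against 40.6% of genes (20.0% and 20.6%). ETV4, ETV5, ETS2 and ELF1 were higher with both guides and EHF was lower with both. Over all genes, 12.4% were called higher with both guides and 12.3% lower with both. SPDEF and ELK3 were not called, and ETS1 and ERG were too low to be tested.

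EHF, known to maintain the differentiated state of prostate epithelium, had the widest fall. It read 417, 436 and 394 CPM in the 22Rv1 control, 65.6, 57.9 and 30.8 CPM with gRNA 1 and 114, 118 and 125 CPM with gRNA 10. No knockout library came near the control range, and the lowest was the library with the high mitochondrial share. The log2 fold change was -3.01 (SE 0.23, adjusted p = 2.59e-06) with gRNA 1 and -1.80 (SE 0.21, adjusted p = 7.34e-05) with gRNA 10. Without the libraries that stood apart it was -2.76 with gRNA 1 (adjusted p = 2.32e-11). Per kilobase, EHF went from 36.2% of the family sum in the control to 5.77% with gRNA 1 and 13% with gRNA 10. SPDEF, a prostate luminal factor, then held the first place, although its own level (69.5 to 91.5 CPM in the control, 66.7 to 91.4 with gRNA 1 and 100 to 105 with gRNA 10) did not pass the test with either guide. With gRNA 10 the log2 fold change of SPDEF was 0.31 (adjusted p = 0.0826), and it passed without replicate 3 of gRNA 1 in the fit (0.32, adjusted p = 0.0117). TMPRSS2, a luminal marker, read 78.7 ± 3.63 CPM in the 22Rv1 control, 24.9 ± 2.43 with gRNA 1 and 55.2 ± 2.84 with gRNA 10 (SD, n = 3). The part of its level in the EHF result was not tested.

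ELF5, the neighbour of EHF on chromosome 11 (chr11:34478793-34513805, minus strand) and an epithelial factor best known from mammary alveoli, was also lower in 22Rv1. Its libraries lay between 8.47 and 10.5 CPM in the control, between 2.26 and 3.03 with gRNA 1 and between 2.58 and 3.24 with gRNA 10. The log2 fold changes of ELF5 were -1.83 (SE 0.17, adjusted p = 1.1e-05) and -1.71 (SE 0.16, adjusted p = 1.7e-05). In DU145 ELF5 had at most 1 count per library and in PC3 it was not tested.

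ETV4 (chr17:43527844-43579620, minus strand), a PEA3 factor, rose the most among the relatives. It read 7.95, 6.83 and 7.29 CPM in the 22Rv1 control, 64.6, 71.9 and 46.3 CPM with gRNA 1 and 27, 27.9 and 24.6 CPM with gRNA 10. The 3 groups were fully separated, gRNA 1 being highest. The log2 fold changes of ETV4 were 3.05 (SE 0.16, adjusted p = 2.43e-07) and 1.85 (SE 0.16, adjusted p = 8.66e-06). Its PEA3 relative ETV5 (chr3:186046308-186110318, minus strand) read 8.85, 8.44 and 7.61 CPM in the control, 43.0, 39.3 and 25 CPM with gRNA 1 and 15.2, 14.9 and 15.3 CPM with gRNA 10. ETV5 was separated in the same order, with log2 fold changes of 2.11 (SE 0.18, adjusted p = 7.58e-06) and 0.87 (SE 0.18, adjusted p = 0.00333). ETV1, the third PEA3 gene, ranged from 8.2 to 11 CPM in the control, from 20.9 to 57.3 with gRNA 1 and from 30.8 to 31.6 with gRNA 10. Its lowest value with gRNA 1 came from replicate 3, which stood apart. Its log2 fold changes were 2.23 (SE 0.31, adjusted p = 2e-04) and 1.75 (SE 0.31, adjusted p = 0.0011), so the 3 PEA3 genes rose together in this line. Leaving out the libraries that stood apart gave 3.20 for ETV4 and 2.30 for ETV5 with gRNA 1.

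ETS2 (chr21:38805307-38824955, plus strand), a nuclear target of ERK, read 22.1, 20.7 and 20.0 CPM in the 22Rv1 control, 29.1, 30.3 and 26.8 with gRNA 1 and 43.1, 39.2 and 43.7 with gRNA 10. All knockout libraries were above the control, by a log2 fold change of 0.46 (SE 0.10, adjusted p = 0.00273) and 1.00 (SE 0.09, adjusted p = 1.45e-05). ELF1 (chr13:40932028-41061440, minus strand) read 22.1, 25.1 and 19.0 CPM in the control, 42.1, 41.8 and 34.1 with gRNA 1 and 35.2, 38.9 and 37.1 with gRNA 10. Its log2 fold changes were 0.83 (SE 0.12, adjusted p = 0.000347) and 0.75 (SE 0.12, adjusted p = 0.000743), again without overlap. ELK3 (chr12:96194382-96269835, plus strand), a ternary complex factor that works with SRF, ranged from 8.31 to 11.8 CPM in the control and from 11.1 to 14.4 CPM in the knockout libraries. Its log2 fold changes of 0.34 and 0.39 did not pass the test (adjusted p = 0.0903 and 0.0651). ELK3 did pass with gRNA 1 and gRNA 10 when control replicate 2 was left out (0.47 and 0.52, adjusted p = 0.0367 and 0.0269). With gRNA 10 it also passed without replicate 3 of gRNA 1 (0.40, adjusted p = 0.014). ETS1 (chr11:128458761-128587558, minus strand) had 0 counts in each 22Rv1 control library and at most 3 in any knockout library. ERG (chr21:38380027-38661780, minus strand) had at most 3 counts in the control and 6 in the knockout libraries, so no fold is given for either. ERG was not analysed in PC3.

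Several relatives also differed between the 2 guides of 22Rv1, where 5 of 8 members were called against 35.6% of all genes. ETV4 and ETV5 were higher with gRNA 1 than with gRNA 10 by 1.2 and 1.24 on the log2 scale (adjusted p = 0.000141 and 0.000336). EHF was lower by 1.21 (log2 difference -1.21, adjusted p = 0.00143) and ETS2 by 0.55 (log2 difference -0.55, adjusted p = 0.00113). SPDEF was also called lower with gRNA 1 (log2 difference -0.41, adjusted p = 0.0346), but not when replicate 1 or 2 of gRNA 1 (-0.32 and -0.38, adjusted p = 0.1 and 0.0853) or replicate 1, 2 or 3 of gRNA 10 (-0.40, -0.42 and -0.44, adjusted p = 0.0944, 0.0887 and 0.0739) was left out. Nor was it called at 10 counts or more in every library (-0.39, adjusted p = 0.051).

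In DU145, 5 of the 6 relatives tested were called with gRNA 2, 4 higher and 1 lower, against 34% of all 14908 genes (17.1% higher and 17.0% lower). With gRNA 10 it was 3 of 6, 1 higher and 2 lower, against 40% of genes (20.2% and 19.8%). ETS1 was higher with both guides and ELF1 lower with both, where 8.05% and 8.02% of all genes were. ETS1, whose product is a founding member of the family and is tied to invasion in several cancers, read 111, 115 and 111 CPM in the control, 188, 220 and 209 CPM with gRNA 2 and 179, 160 and 169 CPM with gRNA 10. All libraries of both RIPK2 guides were above control for ETS1, RIPK2 itself being not called lower with gRNA 10, with log2 fold changes of 0.88 (SE 0.08, adjusted p = 4.9e-05) and 0.60 (SE 0.08, adjusted p = 0.000285). ELF1 read 44.9, 47.1 and 43.3 CPM in the control, 31.4, 35.6 and 37.6 with gRNA 2 and 33.2, 30.7 and 34 with gRNA 10. The direction of ELF1 was thus opposite to that in 22Rv1, with log2 fold changes of -0.37 (SE 0.09, adjusted p = 0.0115) and -0.47 (SE 0.09, adjusted p = 0.00271). The call with gRNA 2 was lost without control replicate 2 (-0.34, adjusted p = 0.0558) and with only the compared libraries (-0.35, adjusted p = 0.0509).

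ETV4, ETV5 and ELK3 differed between the guides in DU145, where ETV1 had at most 2 counts in any library. ETV4 read 36.9, 36.5 and 39.6 CPM in the control, 52.1, 46.8 and 54.3 with gRNA 2 and 31.1, 32.8 and 33.9 with gRNA 10. ETV5 read 75.8, 71.0 and 74.5 CPM in the control, 107, 125 and 85.3 with gRNA 2 and 61.1, 63.9 and 62.2 with gRNA 10. For both genes all gRNA 2 libraries were above the control and all gRNA 10 libraries below it. With gRNA 2 the log2 fold changes passed (ETV4 0.44, adjusted p = 0.00376; ETV5 0.52, adjusted p = 0.00807). With gRNA 10 they did not (ETV4 -0.21, adjusted p = 0.0832; ETV5 -0.24, adjusted p = 0.134). They passed when replicate 2 of gRNA 2 (ETV4 -0.21, adjusted p = 0.0401; ETV5 -0.24, adjusted p = 0.0414) or replicate 3 of gRNA 2 (ETV4 -0.21, adjusted p = 0.0241; ETV5 -0.24, adjusted p = 0.00736) was left out of the shared fit. The count of members called with gRNA 10 was then 5 of 6. ELK3 ranged from 96.2 to 99.3 CPM in the control, from 143 to 181 with gRNA 2 (log2 fold change 0.71, adjusted p = 0.00036) and from 92.2 to 98.5 with gRNA 10 (-0.05, adjusted p = 0.712).

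ETS2 read 142, 142 and 149 CPM in the DU145 control, 146, 152 and 207 CPM with gRNA 2 and 72.0, 68.7 and 65.8 CPM with gRNA 10. It fell with gRNA 10 (log2 fold change -1.07, SE 0.12, adjusted p = 9.77e-05) and did not pass with gRNA 2 (0.22, adjusted p = 0.185), where its highest value came from the library that stood apart. Without that library the gRNA 2 value of ETS2 was 0.05 (adjusted p = 0.565). EHF was at the floor in DU145, with 0, 1 and 0 counts in the control and 0, 1 and 0 with gRNA 2. With gRNA 10 EHF had 11, 8 and 9 counts, at least 3.23-fold above the floor of 3 counts per library. SPDEF had no count in the control, 3, 5 and 4 counts with gRNA 2 and 0, 4 and 6 with gRNA 10, too near the floor for a fold to be given. ERG had at most 1 count in any DU145 library. Between the DU145 guides, 6 of 7 members differed (38.8% of all genes), with ETS2 1.29, ELK3 0.76, ETV5 0.76 and ETV4 0.65 higher with gRNA 2 on the log2 scale (adjusted p = 4.04e-05, 0.000176, 0.000835 and 0.000333). ETS1 was 0.28 higher (adjusted p = 0.0209). That call was lost without replicate 2 or 3 of gRNA 10 (0.24 and 0.28, adjusted p = 0.0926 and 0.0744) and with only the compared libraries (0.28, adjusted p = 0.0742).

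In PC3, 7 of the 8 relatives tested were called with gRNA 2, 3 higher and 4 lower, against 63.6% of all 14718 genes (32.1% higher and 31.5% lower). With gRNA 10 it was 3 of 8, 2 higher and 1 lower, against 73.5% of genes (37.9% and 35.6%). No relative was called in the same direction with both guides, where 17.9% of all genes were higher and 16.3% lower with both. EHF and ETV5 were called in opposite directions, as were 15.5% of all genes.

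SPDEF gave the widest change in PC3, with gRNA 10. It read 50.7, 46.2 and 53.1 CPM in the control, 50.5, 54.6 and 55.2 with gRNA 2 and 231, 215 and 231 with gRNA 10. Its log2 fold change with gRNA 10 was 2.17 (SE 0.05, adjusted p = 4.26e-26), and per kilobase it then led the family with 36.2% of the sum. With gRNA 2 it was 0.10 (adjusted p = 0.111), which passed without control replicate 3 or gRNA 2 replicate 1 (0.14 and 0.13, adjusted p = 0.0417 and 0.0444). Of the luminal markers, TMPRSS2 read 10.7 ± 0.764 CPM in the PC3 control, 30.6 ± 0.976 with gRNA 2 and 108 ± 6.41 with gRNA 10 (SD, n = 3), while KLK3 had at most 1 count in any PC3 library. The part of these levels in the SPDEF result was not tested.

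EHF read 26.9, 35.7 and 30.6 CPM in the PC3 control, 40.0, 43.8 and 43.8 with gRNA 2 and 10.1, 15.3 and 14.4 with gRNA 10. The log2 fold change of EHF was 0.45 (SE 0.13, adjusted p = 0.0179) with gRNA 2 and -1.23 (SE 0.16, adjusted p = 0.000154) with gRNA 10, so the guides lay on either side of the control. The rise was not called without control replicate 3 or gRNA 2 replicate 2 or 3 (0.44, 0.43 and 0.43, adjusted p = 0.0508, 0.0545 and 0.0599).

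ETS1 read 39.4, 43.2 and 46.8 CPM in the PC3 control, 111, 111 and 108 with gRNA 2 and 38.6, 40.6 and 40.4 with gRNA 10. It rose with gRNA 2 (log2 fold change 1.35, SE 0.05, adjusted p = 2.28e-20) and not with gRNA 10 (-0.11, adjusted p = 0.0597). Without control replicate 1, ETS1 was called lower with gRNA 10 (-0.18, adjusted p = 0.00559). ELK3 did likewise, at 47.8, 46.0 and 47.2 CPM in the control, 79.0, 78.0 and 73.9 with gRNA 2 and 46.2, 46.8 and 48.2 with gRNA 10. Its log2 fold change was 0.71 (SE 0.05, adjusted p = 1.76e-14) with gRNA 2 and 0.00 (adjusted p = 0.981) with gRNA 10. FLI1, the neighbour of ETS1 on chromosome 11 (chr11:128686535-128813267, plus strand, 99 kb away) and a haematopoietic and endothelial factor, rose with both guides (log2 fold change 0.30 and 0.26, adjusted p = 0.006 and 0.012). Endothelial markers, which ETS1 and FLI1 accompany in vessels, summed to 2.98 to 3.63 CPM in the PC3 control, 21.4 to 23.4 with gRNA 2 and 47.4 to 53.1 with gRNA 10. Of the 5 markers, PECAM1 and KDR were above 3 counts in each group, and CDH5, VWF and TEK were not. The part of these levels in the ETS1 result was not tested.

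ETV4 and ETV5 had higher control levels in PC3 than in the other lines. ETV4 read 277, 270 and 267 CPM in the control, 225, 219 and 224 with gRNA 2 and 273, 263 and 278 with gRNA 10. Its log2 fold change was -0.29 (SE 0.04, adjusted p = 2.58e-08) with gRNA 2, while with gRNA 10 its libraries overlapped the control (adjusted p = 0.979). ETV5 read 123, 127 and 129 CPM in the control, 99.7, 94.8 and 96.5 with gRNA 2 and 146, 137 and 141 with gRNA 10. It was lower with gRNA 2 (-0.38, SE 0.04, adjusted p = 1.29e-09) and higher with gRNA 10 (0.16, SE 0.04, adjusted p = 0.000529). ELF1 ranged from 20.3 to 21.4 CPM in the control and from 14.7 to 16.7 with gRNA 2 (log2 fold change -0.37, adjusted p = 2.36e-05). With gRNA 10 it was between 21.5 and 23.2 CPM (0.11, adjusted p = 0.124). ETS2 was called lower with gRNA 2 (-0.14, adjusted p = 0.0357). That call was lost with DESeq2 (-0.15, adjusted p = 0.0787) and without control replicate 1 or 3 or gRNA 2 replicate 1 or 3 (-0.14, -0.11, -0.15 and -0.11, adjusted p = 0.0633, 0.17, 0.051 and 0.143). Between the PC3 guides 9 of 9 members differed, against 73.4% of all genes, with ETS1 1.47 and EHF 1.68 higher and SPDEF lower with gRNA 2 (log2 difference -2.08) at adjusted p = 1.01e-21, 1.45e-05 and 1.09e-25. For ETS2 (-0.16, adjusted p = 0.0144) that call was lost without replicate 3 of gRNA 2 or of gRNA 10 (-0.13 and -0.12, adjusted p = 0.0775 and 0.0869).

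**Figure D3:**
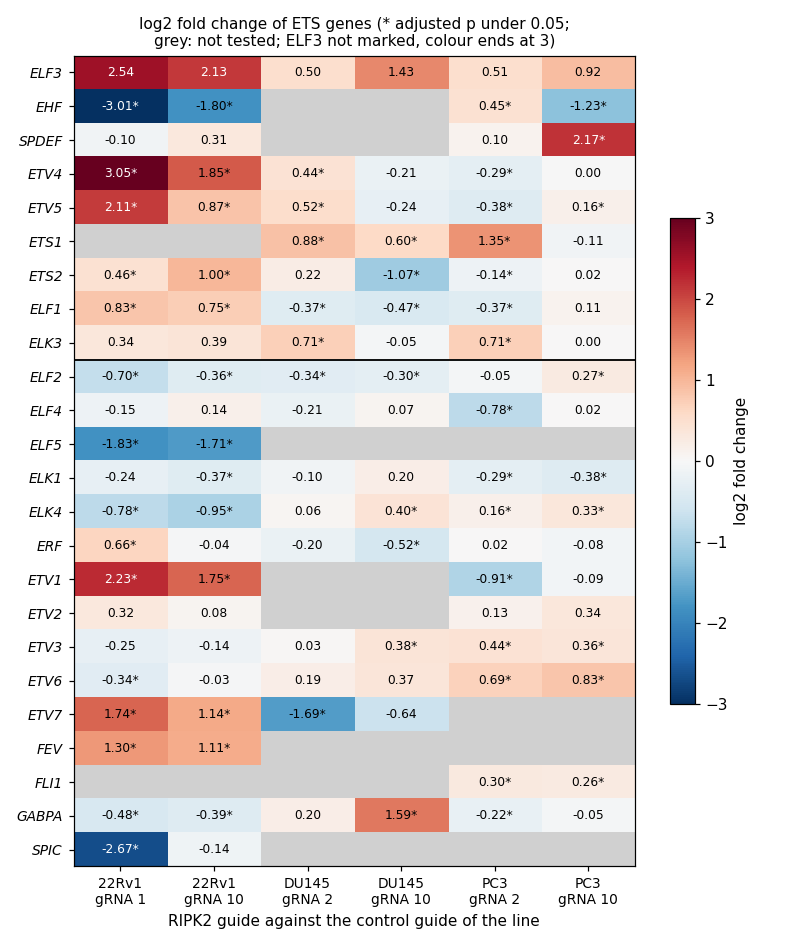
Log2 fold change of the 10 ETS genes (above the line, without ERG) and other tested ETS genes for each RIPK2 guide against the control of its line; red is higher, blue lower, grey not tested, and a star marks an edgeR adjusted p below 0.05. ELF3 carries no star because it was chosen for these values; its values are above zero in each contrast, while EHF runs from -3.01 to 0.45.

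The mean effect of both guides was compared between lines in the model of all 27 libraries, for the relatives above the floor in both lines. The shares of all genes given here include genes at the floor in a line. With such relatives counted too, 5 of 8 tested differed between 22Rv1 and DU145, 4 more positive and 1 more negative in 22Rv1. It was 6 of 8 between 22Rv1 and PC3 and 2 of 8 between DU145 and PC3. The counts that follow leave them out. Between 22Rv1 and DU145, 4 of 5 relatives differed (47.1% of all genes, 23.5% in this direction), each with a more positive change in 22Rv1. These were ETV4 by 2.33, ETV5 by 1.35, ELF1 by 1.21 and ETS2 by 1.15 on the log2 scale (adjusted p = 5.28e-13, 3.33e-07, 7.04e-09 and 2.29e-08). Between 22Rv1 and PC3, 6 of 7 differed (45.3% of all genes). ETV4, ETV5, ELF1 and ETS2 were again more positive in 22Rv1, while EHF (difference -2.0, adjusted p = 1.95e-08) and SPDEF (-1.01, adjusted p = 8.48e-06) were more negative. Because the guides of PC3 disagree for SPDEF and EHF, these differences stand for their average. Between DU145 and PC3, 1 of 6 differed (42.2% of all genes), namely ETS2 (-0.34, SE 0.12, adjusted p = 0.0228). That call was lost without DU145 control replicate 3 (-0.32, adjusted p = 0.0597) or PC3 control replicate 2 (-0.32, adjusted p = 0.053), which left 0 members called. Without the libraries that stood apart it was 4 of 6, with ETV4 (0.25, adjusted p = 0.00529), ETV5 (0.32, adjusted p = 0.000258) and ELF1 (-0.31, adjusted p = 0.00954) added. It was also 4 without 22Rv1 gRNA 1 replicate 3 alone, and 2 without 22Rv1 gRNA 1 replicate 2 or DU145 gRNA 2 replicate 2 or 3. ELF3 differed between lines by 1.37 (22Rv1 against DU145), 1.64 (22Rv1 against PC3) and 0.27 (DU145 against PC3), given without a test.

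Among the 18 other ETS genes, 4 of 14 tested were higher and 6 lower with gRNA 1 in 22Rv1, and 3 were higher and 5 lower with gRNA 10. The median log2 fold changes of this list were -0.24 and -0.09, beside 0.02 and 0.00 over all genes. In DU145, 0 of 9 were higher and 2 lower with gRNA 2, and 3 were higher and 2 lower with gRNA 10. Without the libraries that stood apart 5 and 8 of these were called. In PC3, 4 of 11 were higher and 4 lower with gRNA 2, and 5 higher and 1 lower with gRNA 10. All genes were called at 48.5% and 40.6% in 22Rv1, 34% and 40% in DU145 and 63.6% and 73.5% in PC3, the last being above the share of this list (54.5%). GABPA, a broadly expressed factor of mitochondrial and ribosomal genes, rose in DU145 with gRNA 10 from 36.2 to 38.9 CPM in the control to 108 to 117 CPM (log2 fold change 1.59, SE 0.11, adjusted p = 3.1e-06). ELK4, a partner of SRF, fell in 22Rv1 with both guides (-0.78 and -0.95) and was higher in PC3 with both (0.16 and 0.33). ETV6, a repressor, rose in PC3 with both guides (0.69 and 0.83). ETV1 was lower in PC3 with gRNA 2 (-0.91, SE 0.07, adjusted p = 1.2e-12), where ETV4 and ETV5 were lower too.

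Of the genes whose products partner or regulate ETS proteins, 0 of 16 tested in 22Rv1 were higher and 6 lower with gRNA 1, and 0 higher and 4 lower with gRNA 10 (9 called without the libraries that stood apart). In DU145, 2 of 17 were higher and 4 lower with gRNA 2, and 5 higher and 6 lower with gRNA 10. In PC3 it was 3 higher and 4 lower of 17, then 7 higher and 4 lower. The called shares of 37.5% and 25% in 22Rv1 were below those of all genes (48.5% and 40.6%), the shares of all genes being 34% and 40% in DU145 and 63.6% and 73.5% in PC3. CREBBP, a co-activator, fell in DU145 with both guides (-0.78 and -0.69, adjusted p = 5.1e-05 and 5.7e-05). MRTFB, a co-activator of SRF, fell in 22Rv1 with gRNA 1 (-1.08, adjusted p = 0.00034) and in DU145 with both guides (-0.53 and -0.54). ATXN1, a partner of the repressor CIC, fell in PC3 with both guides (-0.65 and -0.50). COP1, a ubiquitin ligase for ETV1, ETV4 and ETV5 that was singled out after its values were seen, rose in PC3 with both guides (0.72 and 0.77) at levels of 2.05 to 4.18 CPM.

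The ERK output and feedback genes are given beside ETV4 and ETV5, which are targets of the same pathway. In 22Rv1, 12 of 16 were higher and 0 lower with gRNA 1, and 9 higher and 1 lower with gRNA 10, where 48.5% and 40.6% of all genes were called in either direction. Their median log2 fold changes were 1.02 and 0.46. In DU145, 12 of 16 were higher and 1 lower with gRNA 2 (median 0.80), and 3 were higher and 6 lower with gRNA 10 (median -0.29), beside 34% and 40% of all genes called. Without the libraries that stood apart, 14 were called with gRNA 10. In PC3, 5 of 15 were higher and 7 lower with gRNA 2 (median -0.06), and 7 higher and 7 lower with gRNA 10 (median -0.00), beside 63.6% and 73.5% of all genes called. Over all genes the median log2 fold change of these contrasts lay between -0.00 and 0.02. SPRY4, a feedback inhibitor of receptor tyrosine kinase signalling, ranged from 1.49 to 2.09 CPM in the 22Rv1 control, from 27.5 to 39.2 with gRNA 1 and from 4.49 to 5.52 with gRNA 10 (log2 fold change 4.21 and 1.40, adjusted p = 6.6e-08 and 0.00024). EPHA4, an ephrin receptor, went the other way from ETV4 in DU145 with gRNA 10 (3.53, adjusted p = 5.7e-05). EGR1, an immediate early gene, ranged from 39.1 to 441 CPM among the 22Rv1 gRNA 1 libraries against 12.3 to 14.2 in the control (log2 fold change 3.70, SE 0.98, adjusted p = 0.016). The highest EGR1 value there came from replicate 3, which stood apart, and without that library the log2 fold change was 1.55 (adjusted p = 1.2e-08). In DU145 with gRNA 2, EGR1 ranged from 36.3 to 348 CPM and its log2 fold change of 1.58 did not pass (adjusted p = 0.11). Without replicate 3, the highest, it was -0.33 (adjusted p = 0.0049). FOSL1 had at most 1 count per library in the 22Rv1 control, and the medians were the same with it at its floor bound.

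**Figure D4:**
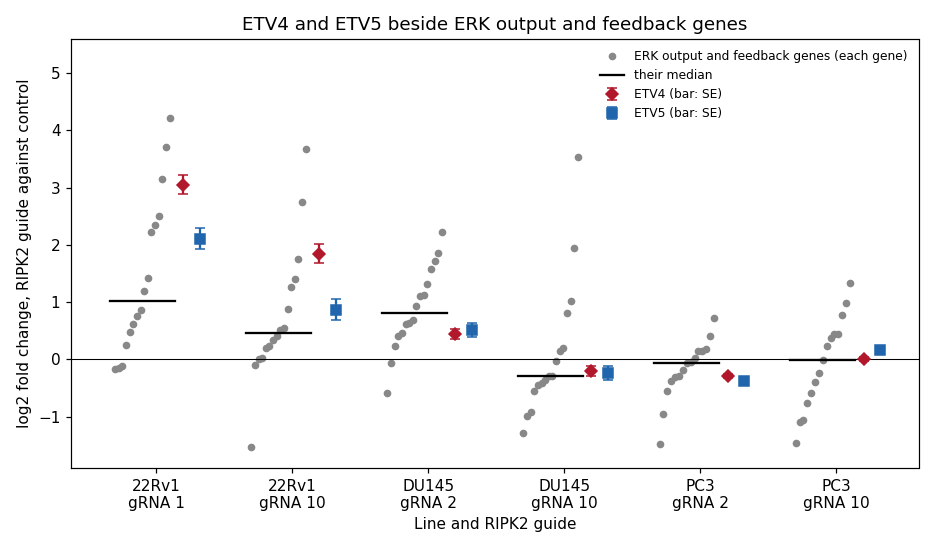
Log2 fold change of ETV4 (diamonds) and ETV5 (squares), with standard errors, beside each ERK output and feedback gene (grey points) and their median (black line), for each guide against its control. The medians run from 1.02 in 22Rv1 gRNA 1 to -0.29 in DU145 gRNA 10, where neither ETV4 nor ETV5 was called. In those contrasts they have the sign of the ETV4 and ETV5 changes. The PC3 points scatter around zero, and ETV5 was called higher there with gRNA 10.

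Inflammatory genes tied to ELF3 in epithelia or to NF-kB, a group whose rise in DU145 was known when the list was written, rose in DU145 in 12 of 16 cases with gRNA 2 (1 lower, median 1.06) and in 14 of 16 with gRNA 10 (0 lower, median 1.40). Of all genes, 17.1% and 20.2% were called higher in these contrasts. In 22Rv1, where 9 of the 17 listed genes were tested, 1 of 9 was higher with gRNA 1 (0 lower, 2 called without the libraries that stood apart) and 2 were higher and 1 lower with gRNA 10, against 48.5% and 40.6% of all genes called. In PC3 4 of 14 were higher and 6 lower with gRNA 2, and 6 higher and 6 lower with gRNA 10, against 63.6% and 73.5% of all genes. BIRC3, an apoptosis inhibitor induced by NF-kB, ranged from 20.6 to 24.7 CPM in the DU145 control, 91.1 to 119 with gRNA 2 and 457 to 516 with gRNA 10 (log2 fold change 2.16 and 4.37, adjusted p = 2.1e-06 and 1.7e-08). It was not called in 22Rv1 or PC3. LCN2, a neutrophil-associated lipocalin, was higher with both guides in DU145 (2.97 and 1.43, adjusted p = 0.00083 and 0.028). IL1B, a cytokine gene, rose in PC3 with gRNA 2 (2.53, adjusted p = 3.7e-26) and fell with gRNA 10 (-3.32, adjusted p = 1.5e-21), while ELF3 was above control with each.

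Of the epithelial regulators and markers, 9 of 19 tested in 22Rv1 were higher and 4 lower with gRNA 1, and 7 higher and 6 lower with gRNA 10. In DU145, 7 of 17 were higher and 6 lower with gRNA 2, and 3 higher and 8 lower with gRNA 10. In PC3 it was 4 higher and 6 lower of 18, then 9 higher and 7 lower. The shares of all genes called in either direction were 48.5% and 40.6% in 22Rv1, 34% and 40% in DU145 and 63.6% and 73.5% in PC3, which also hold for the mesenchymal counts given next. Of the mesenchymal and invasion genes, some of which are known ETS targets, 1 of 8 was higher and 3 lower in 22Rv1 with gRNA 1 and 2 higher and 4 lower with gRNA 10. In DU145 it was 2 higher and 3 lower of 9, then 0 higher and 4 lower. In PC3 it was 8 higher and 3 lower of 13, then 5 higher and 7 lower. OVOL1, a zinc finger regulator of epithelial identity, rose in 22Rv1 with both guides (2.79 and 3.20, adjusted p = 4.7e-05 and 1.7e-05). AGR2, an ER protein of secretory cells, rose in 22Rv1 (5.19 and 0.61, adjusted p = 2.2e-09 and 0.0096) and fell in PC3 (-1.85 and -1.97, adjusted p = 1.5e-07 and 6.7e-08). ESRP1, an epithelial splicing factor, read 8.75 to 12 CPM in PC3 with gRNA 10 against at most 0.0999 in the control, in the same libraries in which SPDEF was high. MMP14, a membrane metalloproteinase, fell in 22Rv1 with both guides (-2.37 and -3.81, adjusted p = 2.2e-05 and 1.5e-06). CDH2, the mesenchymal N-cadherin, rose in 22Rv1 with gRNA 1 (5.06, adjusted p = 1.8e-07). ZEB2, a mesenchymal repressor, was higher in PC3 with gRNA 2 (2.10) and lower with gRNA 10 (-2.0), the same directions as EHF there.

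The genes whose pattern was most like that of ELF3 were found by Pearson correlation of log2 CPM over the 27 libraries, with the mean of each line removed, among 10042 genes. They were EHBP1L1 (r = 0.952), LRRC23 (0.930), COL27A1 (0.916), GPR153 (0.908) and SMUG1 (0.905). The libraries share controls, guides and lines, so these values are a description. Of these 5 genes, 2 were also in the first 5 by Spearman's rank correlation, and 2 over the 9 group means. Their log2 fold changes were largest in 22Rv1, as for ELF3, which their choice by likeness to ELF3 favoured. With gRNA 1 there they ran from 0.57 for SMUG1 to 3.52 for COL27A1. Replicate 3 of that group, which stood apart, had its highest level of ELF3 and of each of these 5 genes. COL27A1 read 89.6 CPM there, against 38.1 and 36.2 CPM in the other replicates. The ranking was not repeated without that library. In PC3 with gRNA 2, COL27A1 was lower (-0.37, adjusted p = 6.35e-05), unlike ELF3. Among the ETS relatives listed in all 3 lines with such counts, ETV4 came nearest (r = 0.696, place 257), followed by ETV5 (0.555) and ELF1 (0.423), and ETS2 was at 0.0266.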

How the data were processed

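RNA from 27 cell samples was sequenced as strand-specific paired-end mRNA libraries, per the labels' protocols. The submitters' processing notes name FastQC, STAR, edgeR and the build hg38. The counting program and annotation are not given in the sources used here. The deposited tables, 1 per line, hold raw counts per gene symbol as the authors made them. From these counts, edgeR 4.0.16 in R 4.3.3 was fitted per line on 9 libraries, with TMM scaling and a robust quasi-likelihood test. Genes were kept at about 10 counts in at least 3 libraries and 15 in all. The adjustment was Benjamini-Hochberg over all genes tested, with calls at 0.05. A model of all 27 libraries, on 16322 tested symbols, compared lines. With 3 against 3 libraries, an exact permutation test cannot go below 0.10. Simulated data drawn from these counts recovered 18.5% of genes changed 1.5-fold with the first guide in 22Rv1. Only 200 genes were changed there, far fewer than were called in the data, so this share does not carry over.

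The members and lists were chosen with earlier results of these data known. Named with values were the 10 members, RIPK2, the 3 genes of each list with the widest mean absolute change (with at least 100 counts on average), other ETS genes at that level, and the 5 genes most like ELF3. Alternatives were DESeq2 1.42.0, other scaling and filters, a replicate block, and libraries left out. Replicate numbers come from the titles. Of 27 same-numbered pairs, 1 had deviations correlated above 0.1, so the numbers were not taken to pair libraries. Some marker genes are not reported here.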

Additional observations from a re-analysis of the deposited data

Results flagged for a closer look

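The effect of RIPK2 guides, as the mean of both guides against control, differed between lines for the following relatives by the interaction term of the edgeR model. Between 22Rv1 and DU145 the log2 fold change was more positive in 22Rv1 for ETV4 by 2.33, for ETV5 by 1.35, for ETS2 by 1.15 and for ELF1 by 1.21. Between 22Rv1 and PC3 it was more positive in 22Rv1 for ETV4 by 2.61, for ETV5 by 1.61, for ETS2 by 0.81 and for ELF1 by 0.94. It was more negative in 22Rv1 for EHF (-2.0) and SPDEF (-1.01). In PC3 the separate guides gave 0.45 and -1.23 for EHF and 0.10 and 2.17 for SPDEF. Between DU145 and PC3 it was more negative in DU145 for ETS2 (-0.34), where the DU145 guides gave 0.22 and -1.07. The cause of these differences was not tested.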

How the results depend on the processing

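Over 114 results on members, 2619 alternative values were computed, of which 2531 stayed the same, 23 lost and 32 gained a call, 2 moved and 31 reversed. Staying the same meant the same direction and side of the threshold. For ELF3 with guides against control, and for its line differences in that effect, no threshold applied. There it meant the same direction and a shift below the pooled SD of log2 CPM between replicates. Both that moved were ELF3 in 22Rv1 with gRNA 1 (2.19). The replicate block left the member counts as they were, for example 5 of 7 with 22Rv1 gRNA 1. The reversed values were all of uncalled differences near 0. With libraries left out in turn, they ran from -0.1629 to 0.0348 for ELK3 between the 22Rv1 guides, and, with PC3 gRNA 10, from -0.0186 to 0.0183 for ETV4, from -0.0211 to 0.0544 for ETS2 and from -0.0169 to 0.0144 for ELK3. They ran from -0.1586 to 0.0374 for ELF1 between the 22Rv1 and PC3 controls. For the line differences of ELK3 they ran from -0.0869 to 0.1631 (22Rv1, DU145), -0.0946 to 0.1556 (22Rv1, PC3) and -0.0571 to 0.0267 (DU145, PC3), and without the libraries that stood apart they were -0.0674, -0.0464 and 0.0209. ETV4 with PC3 gRNA 10 was 0.0044 at 10 counts or more in every library. ELK3 there was -0.0026 with RLE scaling and with DESeq2, -0.0058 without a filter and -0.0064 with only the compared libraries. Members called with DU145 gRNA 10 went from 3 to 5 without a filter, without the libraries that stood apart and with only the compared libraries (3 to 5 with libraries left out in turn). Members whose effect differed between DU145 and PC3 went from 1 to 2 with DESeq2 or at 10 counts or more, and to 4 without the libraries that stood apart (0 to 4 with libraries left out in turn). Without those libraries, list calls went from 2 to 5 and 5 to 8 (other ETS, DU145 gRNA 2 and 10), 4 to 9 (partners, 22Rv1 gRNA 10), 9 to 14 (ERK, DU145 gRNA 10) and 1 to 2 (inflammatory, 22Rv1 gRNA 1). The cause of these changes was not tested. In simulations of the first guide against control, 18.5% of 1.5-fold changes were called in 22Rv1 (14990 genes), 38.5% in DU145 (14718) and 78.5% in PC3 (14496). For 2-fold changes the shares were 78%, 77% and 92%. Only 200 genes were changed there, while 48.5%, 34% and 63.6% of all genes were called in the data. The adjustment for many genes was thus stricter in the simulations, and their shares do not carry over. Small changes can still go uncalled.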
